A study of Mus musculus with 18 samples.

Results

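The chemokines that place lymphocytes in resting gut and lymphoid tissue, with their receptors, were described in mouse colon. The set was chosen by gene symbol and holds 6 ligands (Ccl19, Ccl20, Ccl21a, Ccl28, Cxcl12 and Cxcl13) and 4 receptors (Ccr6, Ccr7, Cxcr5 and Ccr9), which are 10 of the 35976 genes in the deposited table. The table gives TPM, a transcript abundance corrected for gene length and library total, for 18 libraries of bulk colon RNA taken on day 2. Of the 6 libraries in each of 3 groups, the sham group had no colitis induction, the vehicle group had colitis induced with TNBS (trinitrobenzenesulfonic acid, a hapten that causes acute inflammation when given into the colon) and received vehicle, and the ISM012-042 group had TNBS colitis and received ISM012-042. By the series title the compound inhibits PHD enzymes and stays within the gut; these prolyl hydroxylases label hypoxia-inducible factors for destruction. The labels state no strain, age, sex, dose or route. Nothing in the labels says that the libraries of a group come from separate mice, so p-values measure the spread between these libraries, which may in part be technical. The comparison of vehicle with sham addresses the effect of colitis, and that of ISM012-042 with vehicle the effect of the compound in colitis.

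Homeostatic chemokines are made without inflammation and direct where immune cells settle. Ccl19 and Ccl21a draw Ccr7-bearing T cells and dendritic cells into the T cell areas of lymph nodes and gut follicles, and Cxcl13 draws Cxcr5-bearing B cells into follicles. Ccl20 is made by epithelium, above all the epithelium over lymphoid follicles, and attracts Ccr6-bearing B cells, T cells and inducer cells. Ccl28 is made by colon epithelium and attracts IgA-secreting plasma cells that carry Ccr10. Cxcl12, from stroma, acts on Cxcr4 throughout the body, and Ccr9 answers to Ccl25, mainly in the small intestine.

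Of the 10 genes, 8 reached at least 1 TPM in at least 6 libraries and were tested with limma among 14129 genes on the log2(TPM + 1) scale. Ccl19 reached 1 TPM in 5 of 18 libraries and Ccr9 in 1, so both were left out of that fit and are given by level. An exact two-sided permutation test over 924 regroupings, whose smallest possible p is 0.00216, was run on each of the 10 genes in each of the 3 comparisons, 30 tests without adjustment. In TPM the sham means ran from 62.3 for Ccl28, 56.2 for Ccl21a and 33.0 for Cxcl12, through 19.5 for Ccl20 and 12.1 for Cxcl13, to 1.74 for Ccr6, 1.08 for Ccr7, 1.02 for Cxcr5, 0.297 for Ccr9 and 0.270 for Ccl19. The 4 receptors and Ccl19 thus lay near or under 2 TPM in sham colon, and the other ligands lay well above. In a bulk sample fewer cells of a type and less RNA per cell cannot be told apart.

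The libraries carried colon RNA: the summed TPM of 12 colon epithelial markers lay between 10579 and 17610 in sham, 8073 and 15357 in vehicle, and 9446 and 20072 in ISM012-042. A pair of ISM012-042 libraries, replicates 2 and 3, stood apart. Replicate 3 had the highest level of 8 of the 10 genes among the 18 libraries, replicate 2 that of Cxcl12, and for 6 genes these were the top pair. The same libraries had the highest B cell marker levels. The summed TPM of 12 B cell genes was 755 in replicate 3 and 151 in replicate 2, while it ran from 10.6 to 104 in sham and from 6.46 to 135 in vehicle. The summed T cell markers were 139 and 90.3, against 18.3 to 35.0 in sham and 27.3 to 41.9 in vehicle. Results are therefore given with and without these libraries, a choice made after their values were seen. Neutrophil markers separated the colitis groups from sham, with a summed TPM of 11.9 to 31.1 in sham, 199 to 28882 in vehicle and 50.5 to 7259 in ISM012-042, and their part in the results was not tested. Replicates 2 and 3 of ISM012-042 were unlike here, at 7259 and 133 TPM. Replicate 2 also had the highest summed blood endothelial markers of the 18 libraries, 247 TPM, beside 71.6 TPM in replicate 3. Hoxb13, a gene of the distal colon, ran from 9.05 to 288 TPM in sham, 1.52 to 179 TPM in vehicle and 0.329 to 219 TPM in ISM012-042. Replicates 2 and 3 of ISM012-042 were at 219 and 211 TPM, and the rest of that group reached at most 68.8 TPM. In sham, replicates 1 and 6 were at 16.1 and 9.05 TPM and the others at 217.6 TPM or more. With Hoxb13 as a covariate the vehicle minus sham difference was -1.04 for Ccl20, -0.64 for Ccl28 and 1.78 for Cxcl13, beside -1.57, -1.04 and 1.41 without it.

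The regions just before the start sites are shown for the 3 ligands whose vehicle and sham levels were farthest apart, Ccl20, Cxcl13 and Ccl28. They are the 250 bases before each RefSeq start site in GRCm38.p6, the assembly of mm10, all on the plus strand, at chr1:83116516-83116765 for Ccl20, chr5:95956689-95956938 for Cxcl13 and chr13:119623569-119623818 for Ccl28. Capitals mark matches, on either strand, to the canonical NF-kB consensus or to ACGTG and GCGTG, the core of the hypoxia-inducible factor site.

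Ccl20: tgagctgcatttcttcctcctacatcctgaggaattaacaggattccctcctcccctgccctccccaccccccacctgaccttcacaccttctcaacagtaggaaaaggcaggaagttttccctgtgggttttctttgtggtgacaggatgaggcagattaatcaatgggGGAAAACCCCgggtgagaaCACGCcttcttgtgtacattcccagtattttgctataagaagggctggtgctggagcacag

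Cxcl13: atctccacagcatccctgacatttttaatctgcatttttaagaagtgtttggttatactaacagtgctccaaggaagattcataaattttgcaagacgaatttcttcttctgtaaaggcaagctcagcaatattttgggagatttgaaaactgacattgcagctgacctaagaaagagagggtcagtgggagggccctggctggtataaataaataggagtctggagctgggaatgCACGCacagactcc

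Ccl28: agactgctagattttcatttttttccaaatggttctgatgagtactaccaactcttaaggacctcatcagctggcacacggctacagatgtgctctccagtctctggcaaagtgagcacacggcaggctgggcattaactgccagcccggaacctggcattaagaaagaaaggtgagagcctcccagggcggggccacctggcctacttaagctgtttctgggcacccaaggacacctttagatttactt

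In Ccl20 the NF-kB match lay on the minus strand, its first base 80 upstream of the start, and a GCGTG match on the minus strand began 61 upstream. Cxcl13 held GCGTG on the minus strand from 14 upstream, and the Ccl28 window held none of these motifs. Over 32851 promoter windows of the same length, the NF-kB consensus was found in 3.90%, ACGTG in 16.6% and GCGTG in 28.2%. A total of 8 of the 10 genes had a window in the RefSeq table, 9 windows in all, and besides the 3 above, Ccl19 held GCGTG, and 1 of the Ccr6 windows held overlapping NF-kB matches and ACGTG. A match is a stretch of letters and not a measured binding site.

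The epithelial ligands Ccl20 and Ccl28 stood lower, and the follicular ligand Cxcl13 higher, in vehicle than in sham colon, but none of the 8 tested genes passed the all-gene adjustment (limma with Benjamini-Hochberg adjustment, threshold 0.05). In that comparison 4.46% of all tested genes passed, 0.326% as higher (46 genes) and 4.13% as lower (584 genes). After median-ratio scaling, which sets the typical gene level in all libraries, 517 passed as higher and 961 as lower. No member had groups that did not overlap, beside 0.687% of genes whose vehicle libraries were all above sham and 1.91% all below. Without adjustment 3 of the 8, the same Ccl20, Ccl28 and Cxcl13, had p under 0.05, as did 18.1% of all tested genes. The other tested members differed by 0.25 or less in size on the log2 scale.

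Ccl20 (chromosome 1, 83116766 to 83119167) had a lowest, median and highest level of 8.58, 19.8 and 29.5 TPM in sham, 1.66, 5.55 and 16.3 TPM in vehicle, and 1.83, 3.22 and 38.5 TPM in ISM012-042. In 5 of 6 sham libraries it was above every vehicle library, and 4 of 6 vehicle libraries lay below every sham library. The log2 difference of vehicle from sham was -1.57 ± 0.59 (SE, n = 6 and 6; limma adjusted p = 0.149), and the exact permutation p was 0.0108. ISM012-042 differed from sham by -1.58 ± 0.59 (limma adjusted p = 0.164; exact permutation p = 0.0411). In that group 4 libraries, at 1.83 to 3.37 TPM, lay below every sham library, whereas replicate 2 reached 11.3 TPM and replicate 3 38.5 TPM, the highest of the 18. Without those 2 libraries Ccl20 passed the all-gene adjustment in both comparisons with sham: the difference was -1.57 ± 0.39 in vehicle (limma adjusted p = 0.0315) and -2.47 ± 0.44 in ISM012-042 (limma adjusted p = 0.0153, n = 4). These calls share the sham libraries, and without the 2 libraries 3.96% of all genes passed as lower in vehicle and 0.672% as lower in ISM012-042. The 2 libraries were picked for their high values of the members, Ccl20 among them. They also held the highest Hoxb13 of their group, while most sham libraries had high Hoxb13. The part of Hoxb13 in the ISM012-042 call was not tested. Leaving them out lowers the ISM012-042 mean and the SE shared by the groups, so these calls are a description and not independent support. In vehicle and ISM012-042 Ccl20 had nearly the same mean log2 level, with a difference of -0.02 and a 95% interval from -1.25 to 1.22, an interval wider than 2-fold in either direction. Without replicates 2 and 3 that difference was -0.90 ± 0.44 (limma adjusted p = 0.461; exact permutation p = 0.143).

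Ccl28 (chromosome 13, 119623819 to 119654359) had a lowest, median and highest level of 48.1, 55.4 and 100 TPM in sham, 9.41, 29.8 and 78.4 TPM in vehicle, and 32.3, 36.7 and 72.9 TPM in ISM012-042. In 5 of 6 vehicle libraries it was below every sham library, and vehicle replicate 1, at 78.4 TPM, was above 5 of the 6 sham libraries. Vehicle differed from sham by -1.04 ± 0.36 (limma adjusted p = 0.117; exact permutation p = 0.0390). Without vehicle replicate 1 the difference was -1.32 and passed (limma adjusted p = 0.0183), beside 6.26% of all genes passing as lower. With limma's array weights, which down-weight variable libraries, it was -0.63. In ISM012-042 Ccl28 lay between the other groups, 0.59 ± 0.36 above vehicle (limma adjusted p = 0.326) and 0.45 ± 0.36 below sham on the log2 scale, neither of which passed. Its receptor Ccr10, carried by plasma cells, is described with the pairs below.

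Cxcl13 (chromosome 5, 95956939 to 95961068) had a lowest, median and highest level of 4.09, 12.004 and 19.9 TPM in sham, 16.6, 35.4 and 50.6 TPM in vehicle, and 7.82, 23.2 and 90.2 TPM in ISM012-042. In 4 of 6 vehicle libraries it was above every sham library. Vehicle differed from sham by 1.41 ± 0.50 (limma adjusted p = 0.123; exact permutation p = 0.0152) and ISM012-042 by 1.17 ± 0.50 (limma adjusted p = 0.211; exact permutation p = 0.0866). Without ISM012-042 replicates 2 and 3, at 53.0 and 90.2 TPM, the SE was 0.38 in place of 0.50 and the vehicle difference, still 1.41, passed (limma adjusted p = 0.0428), beside 0.687% of all genes passing as higher. Those libraries were picked after their values were seen, so this call is not independent support. The remaining 4 ISM012-042 libraries averaged 16.6 ± 8.74 TPM (SD) and differed from sham by 0.46 ± 0.43 and from vehicle by -0.95 ± 0.43 (unadjusted limma p = 0.0398, adjusted p = 0.455; exact permutation p = 0.0524). With all libraries ISM012-042 differed from vehicle by -0.24 ± 0.50, and neither value passed.

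**Figure D1:**
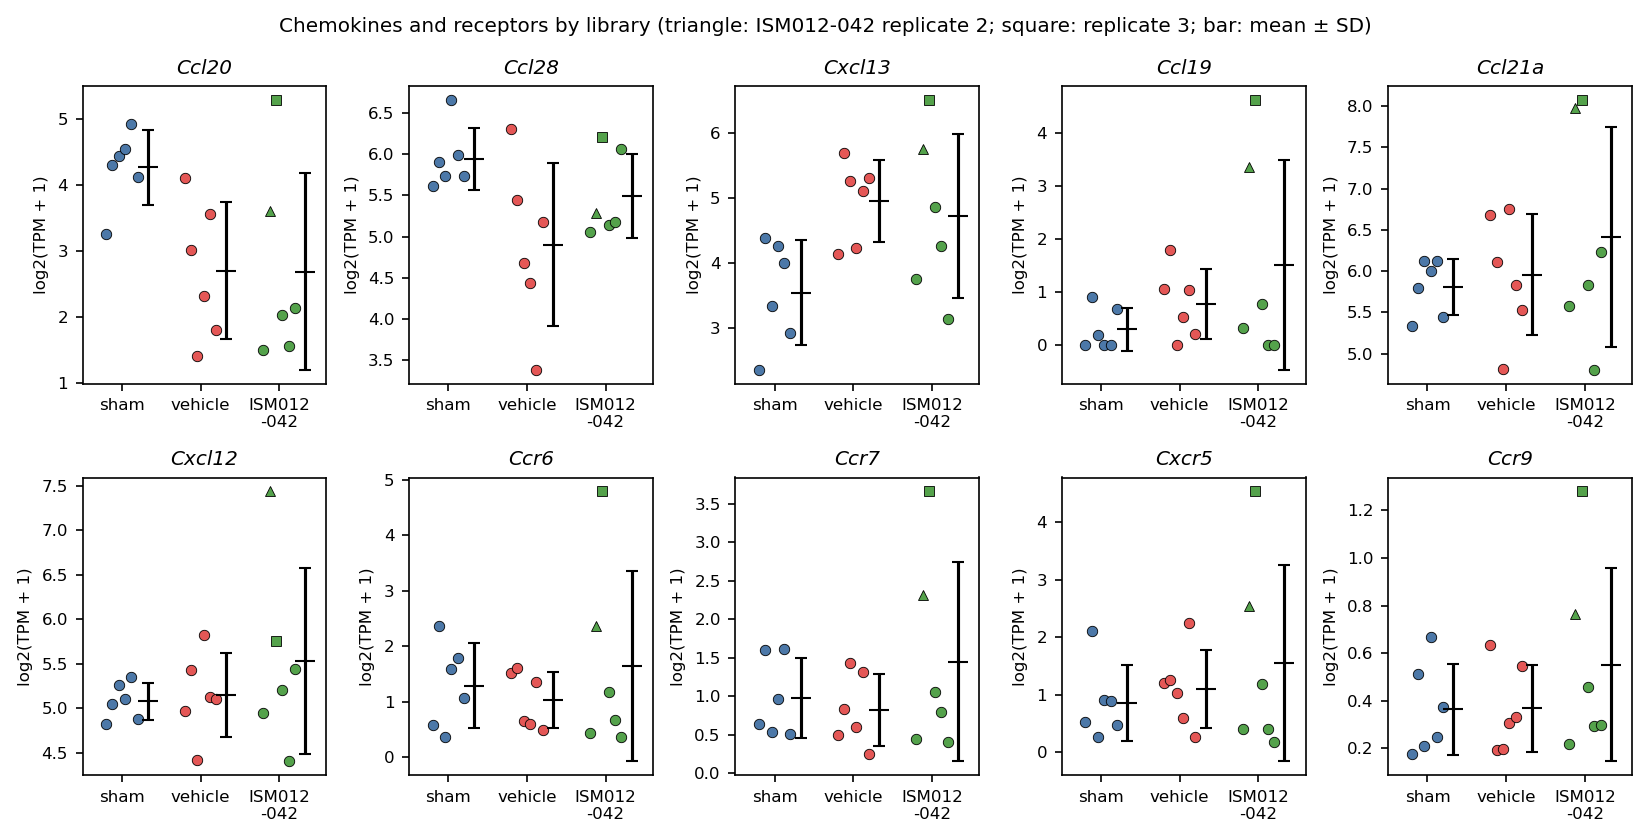
Level of each chemokine and receptor as log2(TPM + 1) in the 18 libraries, with a point per library and, beside each group, its mean ± SD (n = 6). Ccl20 and Ccl28 are low in most vehicle libraries and Cxcl13 is high, while ISM012-042 replicate 3 (square) is the highest of all libraries for 8 of the 10 genes.

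For neither T cell zone ligand did a difference between groups exceed the spread of the libraries. Ccl19 (chromosome 4, 42754525 to 42756365) was listed at 0 in 3 sham, 1 vehicle and 2 ISM012-042 libraries. Its median was 0.069 TPM in sham, 0.745 TPM in vehicle and 0.485 TPM in ISM012-042, and its highest values were 0.878, 2.47 and 23.97 TPM. ISM012-042 replicates 3 and 2, at 23.97 and 9.28 TPM, were the top values, and the other 4 libraries of that group did not exceed 0.721 TPM. Vehicle and sham overlapped (exact permutation p = 0.156).

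Ccl21a (chromosome 4, 42772860 to 42773991) had a lowest, median and highest level of 39.5, 58.9 and 68.9 TPM in sham, 27.1, 62.2 and 107 TPM in vehicle, and 26.9, 65.1 and 270 TPM in ISM012-042. The medians were close, and replicates 2 and 3 of ISM012-042, at 251 and 270 TPM, were far above the other 16 libraries. The log2 differences were 0.15 ± 0.48 in vehicle relative to sham, 0.46 ± 0.48 in ISM012-042 relative to vehicle and 0.61 ± 0.48 in ISM012-042 relative to sham. Without the 2 libraries the difference of ISM012-042 from vehicle had the opposite sign, -0.34. The Ccl21a value is uncertain in another way, because the mouse genome holds near-identical copies. The GENCODE transcript of Ccl21b was 99.5% identical to that of Ccl21a, and those of Gm10591, Gm13304 and Gm21541 were 99.5%, 99.4% and 99.3% identical, over the bases that align. Ccl21a held 38.7 to 49.7% of the TPM of 7 copies (median 46.4%), and Gm1987 was at 0.822 to 1.29 times Ccl21a in the 18 libraries. Summed over the copies the level was 120 ± 29.5 TPM for the sham libraries, 151 ± 63.5 for vehicle and 263 ± 241 for ISM012-042 (SD, n = 6 each). These sums overlapped (exact permutation p = 0.452 for vehicle against sham, 0.537 for ISM012-042 against vehicle and 0.329 for ISM012-042 against sham).

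Cxcl12 (chromosome 6, 117168535 to 117181368), the stromal ligand, had the narrowest spread in sham for its level. Its lowest, median and highest levels were 27.2, 32.7 and 39.8 TPM in sham, 20.4, 33.7 and 55.7 TPM in vehicle, and 20.1, 39.2 and 173 TPM in ISM012-042. The top value belonged to ISM012-042 replicate 2, which also had the highest summed fibroblast markers, 3251 TPM, and whose part in the value was not tested. The log2 differences were 0.07 ± 0.36 in vehicle relative to sham and 0.38 ± 0.36 in ISM012-042 relative to vehicle, and without the 2 libraries the latter was -0.15.

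The receptors of B and T lymphocytes were low in all groups and overlapped between them. Ccr6 (chromosome 17, 8236041 to 8258519) had a lowest, median and highest level of 0.278, 1.55 and 4.14 TPM in sham, 0.402, 1.06 and 2.04 TPM in vehicle, and 0.291, 0.926 and 26.8 TPM in ISM012-042. Cxcr5 (chromosome 9, 44511787 to 44526444) ran from 0.204 to 3.33 TPM in sham (median 0.652), 0.201 to 3.73 TPM in vehicle (1.17) and 0.133 to 22.4 TPM in ISM012-042 (0.808). Ccr7 (chromosome 11, 99144199 to 99155077) ran from 0.421 to 2.05 TPM in sham (median 0.750), 0.189 to 1.70 TPM in vehicle (0.643) and 0.319 to 11.7 TPM in ISM012-042 (0.904). Cxcr5 and Ccr7 reached 1 TPM in 5 and 4 of the 12 sham and vehicle libraries, so they were tested only through ISM012-042 libraries, the group that holds their highest values. For these 3 receptors the top value came from ISM012-042 replicate 3, and the medians of the groups differed by less than 1 TPM.

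Ccr9 (chromosome 9, 123767211 to 123783457), the small intestinal homing receptor, was the lowest of the receptors, at 0.129 to 0.587 TPM in sham, 0.143 to 0.551 TPM in vehicle and 0.164 to 1.43 TPM in ISM012-042. Vehicle and sham had the same mean to 2 decimals, 0.30 TPM (exact permutation p = 0.961). Against vehicle the log2 difference in ISM012-042 was 0.60 ± 0.60 for Ccr6, 0.45 ± 0.60 for Cxcr5 and 0.62 ± 0.45 for Ccr7. Without replicates 2 and 3 these differences were -0.37, -0.55 and -0.15. Neither set of values passed.

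None of the 8 tested genes passed between ISM012-042 and vehicle, where 0% of the 14129 genes passed, 0.651% had all ISM012-042 libraries above vehicle and 0.0212% all below, and 2688 had an unadjusted limma p under 0.05, and none of the 8 members was among them. In that comparison 6 members had a positive and 2 a negative difference, with a median of 0.46 beside 0.30 for all tested genes. Cxcr5 and Ccr7 are among the 6 and passed the filter only through ISM012-042 libraries. The count and median of the members therefore cannot be read against those of all genes. Without replicates 2 and 3 the differences of Ccr6, Cxcr5, Ccr7, Ccl21a and Cxcl12 were negative, from -0.55 to -0.15. Between ISM012-042 and sham none of the 8 passed either, beside 1.42% of all genes passing, 0.545% as higher (77 genes) and 0.871% as lower (123 genes). After median-ratio scaling these counts were 137 and 618. Groups did not overlap in 3.8% of genes for higher and 1.05% for lower, and in none of the members. Ccl20 and Cxcl13 had an unadjusted limma p under 0.05, as did 20.8% of all tested genes. The median of the members, under the same limit, was 0.46 and that of all genes 0.21. In vehicle against sham the medians were -0.04 and -0.07. After median-ratio scaling the all-gene medians were 0.03, 0.01 and 0.02 for vehicle against sham, ISM012-042 against vehicle and ISM012-042 against sham. The 8 members kept their signs between ISM012-042 and vehicle, with differences from -0.57 for Cxcl13 to 0.39 for Ccr6.

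**Figure D2:**
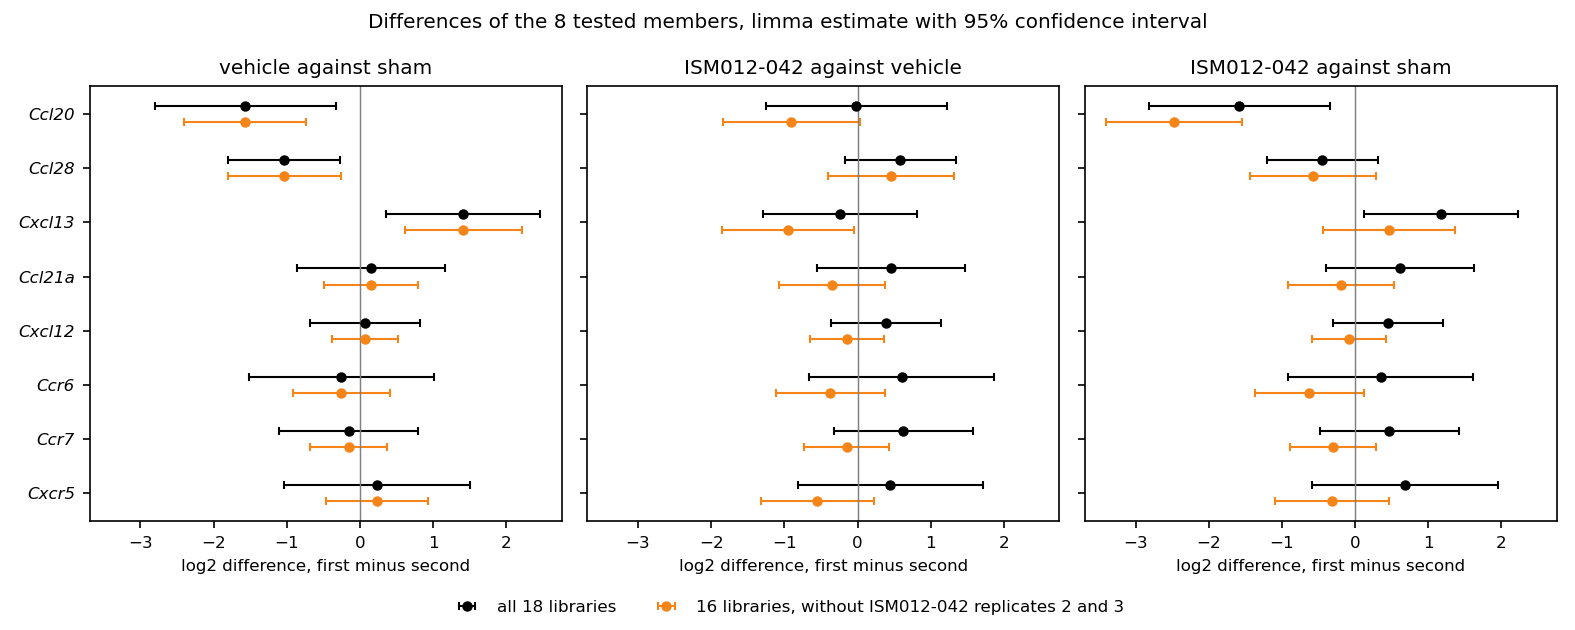
Log2 difference of each tested chemokine and receptor with its 95% confidence interval from limma, in all 18 libraries (black) and without ISM012-042 replicates 2 and 3 (orange). The intervals of Ccl20, Ccl28 and Cxcl13 lie to 1 side of 0 in vehicle against sham in both sets, and the estimates of Ccr6, Ccr7, Cxcr5, Ccl21a and Cxcl12 in ISM012-042 against vehicle change sign.

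With group means removed, Cxcr5, Ccr6 and Ccr7 varied together with lymphocyte markers, though not equally in each group. After removal of the group mean from log2(TPM + 1), Pearson's r over the 18 libraries between Cxcr5, the B cell follicle receptor, and the mean of the 12 B cell markers was 0.99 (Spearman's rho 0.96, permutation p = 1e-05, the smallest the resamples can give; adjusted p over 8 relations 8e-05). It was 0.95 without ISM012-042 replicates 2 and 3, the libraries farthest from the median. For Ccr6 and Ccr7 against the B cell markers r was 0.95 and 0.94 (rho 0.94 and 0.91; permutation p = 2e-05 and 4e-05), and 0.82 and 0.80 without those libraries. Against the T cell markers r was 0.94 for Cxcr5, 0.93 for Ccr7 and 0.93 for Ccr6, and was 0.73, 0.69 and 0.67 without them. Within sham, vehicle and ISM012-042, r with the B cell markers was 0.92, 0.99 and 0.996 for Cxcr5. It was 0.96, 0.65 and 0.99 for Ccr6, and 0.93, 0.69 and 0.99 for Ccr7. Within vehicle, r with the T cell markers was 0.77 for Cxcr5, 0.45 for Ccr7 and 0.34 for Ccr6. Ccr9 had r = 0.74 with B cell and 0.82 with T cell markers (adjusted permutation p = 0.0108 and 0.00497), and 0.17 and 0.30 without replicates 2 and 3, so its relation rests on those libraries. All values come from the same bulk libraries, whose composition and library total they share. A relation with these markers was likely beforehand for receptors that lymphocytes carry, so the p-values say little beyond that.

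**Figure D3:**
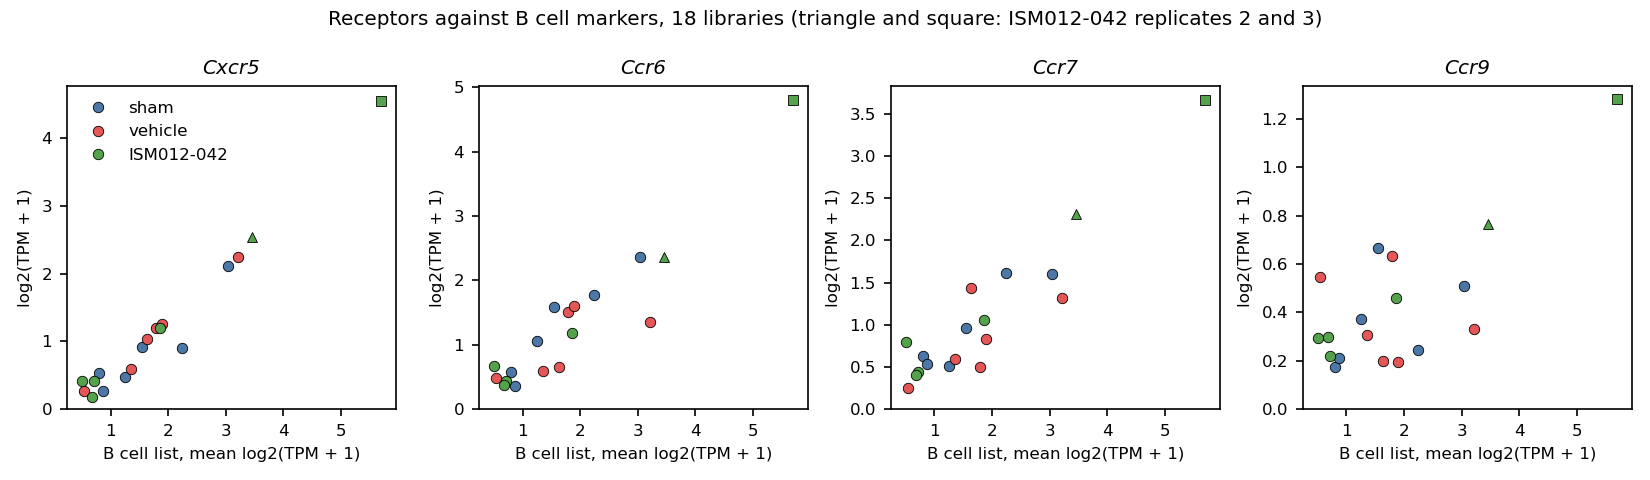
Each receptor as log2(TPM + 1) against the mean log2(TPM + 1) of 12 B cell markers, with a point per library coloured by group, before removal of group means. Cxcr5, Ccr6 and Ccr7 are higher where the B cell markers are higher, also among the libraries under the top pair, and Ccr9 shows a slope mainly through ISM012-042 replicates 2 and 3.

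A ligand and its receptor were compared in the same way in 7 pairs, of which 4 passed Benjamini-Hochberg adjustment. Some pairs that are not known partners were as close, so the count does not measure matching of ligand and receptor. Ccl19 had r = 0.89 with Ccr6 and 0.89 with Cxcr5, and Cxcl13 had 0.82 with Ccr7 and 0.80 with Ccr6. Ccl20 had 0.81 with Cxcr5 and 0.71 with Ccr7, below its value with Ccr6. Ccl20 and Ccr6 had r = 0.85 (rho 0.76, permutation p = 0.00034, adjusted 0.00238), 0.86 without the 2 libraries farthest from the median of Ccl20, and 0.48, 0.86 and 0.97 within sham, vehicle and ISM012-042. Cxcl13 and Cxcr5 had r = 0.77 (rho 0.72, permutation p = 0.00121, adjusted 0.00423), with 0.70, 0.12 and 0.94 within the groups. For Ccl28 and Ccr10 r was 0.62 (permutation p = 0.00967, adjusted 0.0210), with rho 0.43 (permutation p = 0.106). Within sham, vehicle and ISM012-042 r was -0.003, 0.89 and 0.60. Ccr10 lay under the filter, with means of 0.802, 0.498 and 0.971 TPM in those groups. Ccl19 and Ccr7 had r = 0.81 (rho 0.67, permutation p = 0.0120, adjusted 0.0210) and 0.11 without ISM012-042 replicates 2 and 3, so that relation rests on those libraries. Ccl21a and Ccr7 (r = 0.60, adjusted permutation p = 0.1003), Cxcl12 and Cxcr4 (0.50, 0.210) and Ccl25 and Ccr9 (0.01, 0.985) did not pass. Without ISM012-042 replicates 2 and 3 none of the 7 passed, and r was 0.58 for Ccl20 and Ccr6, 0.51 for Cxcl13 and Cxcr5 and 0.58 for Ccl28 and Ccr10, each with an adjusted permutation p of 0.139.

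**Figure D4:**
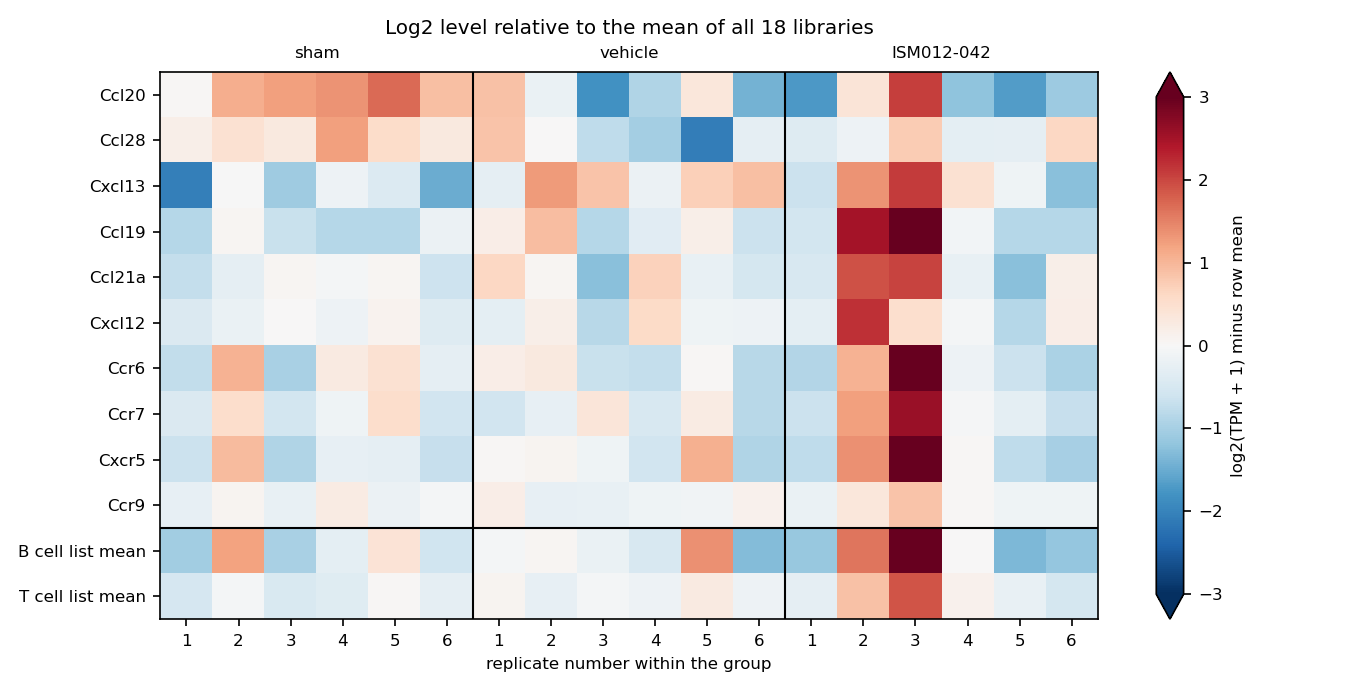
Log2(TPM + 1) of each gene minus its mean over the 18 libraries, with libraries in columns by group and the mean of the B cell and T cell markers in the lowest rows; colours end at 3 in either direction. ISM012-042 replicate 3 is above the mean in every row, with replicate 2 above it in all rows but Ccl28.

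Of the partner genes of these chemokines, 8 of 12 found in the table were tested and none passed in any of the 3 comparisons, with a median log2 difference of 0.01 between vehicle and sham, 0.24 between ISM012-042 and vehicle and 0.22 between ISM012-042 and sham. Ackr4, a scavenger that removes Ccl19, Ccl21 and Ccl25, differed by -0.70 ± 0.31 in vehicle against sham (limma adjusted p = 0.235). Cxcr4, the receptor of Cxcl12, differed by 0.58 ± 0.43 there. Of the 15 genes of the lymphotoxin and alternative NF-kB pathway, which organises lymphoid tissue and drives Cxcl13, Ccl19 and Ccl21 in stroma, 13 were tested and none passed. The nearest to passing in vehicle against sham was Tnfrsf11a, the receptor RANK on epithelium that gives rise to M cells, at -0.92 ± 0.26 (limma adjusted p = 0.0523). Madcam1, the address molecule of gut venules, stood at 1.05 ± 0.53 (limma adjusted p = 0.308). Id2, needed for lymphoid inducer cells, was 0.41 ± 0.13 above vehicle in ISM012-042 (limma adjusted p = 0.233).

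Markers of the cells that make or answer these chemokines mostly did not pass either. All 12 B cell genes were tested, and 7 of 12 T cell genes, with no call in any comparison. The follicular and reticular stroma list had 8 genes tested in vehicle against sham, all with a positive difference and none passing, led by Bst1 at 1.64 ± 0.56 (limma adjusted p = 0.110). Of the follicle-associated epithelium list, whose cells are a source of Ccl20, 7 genes were tested, 5 with a positive and 2 with a negative difference in vehicle against sham, and none passed, with Ccl9 at 1.40 ± 0.45 (limma adjusted p = 0.0823) and Marcksl1 at 1.71 ± 0.55 (limma adjusted p = 0.0848). Gp2 of the same list went the other way, with a mean of 4.36 TPM in sham and 1.67 TPM in vehicle. In the colon epithelium list 9 of 12 genes had a negative and 3 a positive difference in vehicle against sham. The median of that list was -0.40 beside -0.07 for all tested genes. Of its genes only Slc26a3, the chloride exchanger of surface colonocytes, passed, at -2.66 ± 0.46 (limma adjusted p = 0.005). All 8 neutrophil genes had a positive difference in vehicle against sham, and 4 passed as higher. Of 6 plasma cell genes 2 had a positive and 4 a negative difference in vehicle against sham, with a median of -0.27. In ISM012-042 against vehicle all 6 were positive, with a median of 0.49 beside 0.30 for all tested genes. None passed. Of these, Jchain, which joins IgA dimers, stood at -0.68 ± 0.27 in vehicle against sham (limma adjusted p = 0.178) and at 0.90 ± 0.27 in ISM012-042 against vehicle (limma adjusted p = 0.233). The other lists, 17 in all, held no gene that passed in vehicle against sham, and no list held a gene that passed in the other comparisons. Stab2 of lymphatic endothelium and Xcr1 of dendritic cells were under 1 TPM in every library.

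The genes whose log2 levels were most like those of each member over the 18 libraries were named by Pearson's r, as a description over libraries that share depth and composition. Group means were kept, and r was not computed again without ISM012-042 replicates 2 and 3. Replicate 3 held the highest Cxcr5, Ccr6 and Ccr7, which can raise their r. Cxcr5 lay closest to H2-Oa (0.99), Bank1 (0.98) and Cd22 (0.98), and Ccr6 to Cr2 (0.97), Bank1 (0.96) and Xlr4b (0.96). Bank1, Cr2 and Cd22 are B cell genes of the list used above. Ccr7 lay closest to Pou2af1 (0.96), a B cell co-activator, Lax1 (0.95) and Btla (0.95). Of the ligands, Ccl20 lay closest to Gp2 (0.87), the M cell receptor for bacteria, and Btg1 (0.85), and Ccl28 to Lgr4 (0.96), Scamp1 (0.96) and Ptpn3 (0.95). Cxcl12 lay closest to Gpr153 (0.94), Stx2 (0.93) and P3h3 (0.93), and Ccl21a to Kcnab2 (0.93), Calhm2 (0.92) and Nfatc2 (0.92). Cxcl13 was set apart by its neighbours, which were the ribosomal protein genes Rpl17 (0.90) and Rps14 (0.86).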

How the data were processed

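Colon RNA was extracted with TRI Reagent and RNeasy columns and reverse transcribed with FastKing, per the labels' protocols. The authors deposited TPM per gene symbol, and each column sums to 1000000. The submitters' processing notes name DRAGEN 4.0.3 and mm10 without a role; counting, annotation and strand are not stated in the sources used here. Sequencing depth is unknown, so precision rests on the spread between libraries. Groups came from sample titles and the TNBS assignment from the series' design text. All 3 comparisons were fitted in 1 model (limma 3.58.1, R 4.3.3, trend and robust) on log2(TPM + 1) for genes with at least 1 TPM in at least 6 libraries, with Benjamini-Hochberg adjustment over 14129 genes. Correlations used values with group means removed and 100000 permutations within groups. Coordinates and promoters are RefSeq's (GRCm38.p6, 1-based), and transcript identities GENCODE's (release M21). The fit was tested on simulated data. The members and lists were chosen with earlier results of these data known, as were the motifs. Named genes are the members, up to 2 genes per list and comparison by smallest p, and the 3 closest genes per member, some of which are not reported here. A total of 30 alternatives were planned and 3 added after the data had been seen. Replicate numbers were not used for pairing.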

Additional observations from a re-analysis of the deposited data

Results flagged for a closer look

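In 2 of 30 groups of 6 libraries, 1 library lay far from the others of its group by Dixon's criterion on the log2(TPM + 1) scale, which chance meets in about 1 group in 20. Ccl28 was at 100.3 TPM in sham replicate 4, where the next highest sham library had 62.4 TPM, and the gap made up 0.646 of the group's range on the log2 scale. Cxcr5 was at 3.33 TPM in sham replicate 2, where the next highest had 0.884 TPM, a gap of 0.650 of the range on the log2 scale. The criterion takes the gap to the nearest library, so 2 libraries that are high together can escape it. An example is Ccl21a in ISM012-042 replicates 2 and 3, at 251 and 270 TPM.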

How the results depend on the processing

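No member passed in ISM012-042 against vehicle under any of 33 settings, and only Ccl28 kept its sign in all of them; Ccl20 kept its sign in 25, and Ccr6 and Cxcr5 in 29 of the 32 that tested them. In the comparisons with sham, Ccl20, Ccl28 and Cxcl13 kept their sign in all 33, with log2 differences of -1.85 to -1.04, -1.32 to -0.63 and 1.13 to 1.78 for vehicle, and Ccl20 of -2.55 to -1.04 for ISM012-042. Against 0 in the fit of all 18 libraries, 1 member passed as lower in vehicle with mitochondrial genes left out (Ccl28, limma adjusted p = 0.0496), with the B cell markers as a covariate (Ccl20, 0.0101) and without ISM012-042 replicates 2 and 3, and 2 passed when median-ratio scaling was added to the last. Over all genes 911, 579, 559 and 1030 passed as lower in these 4 settings, of 14116 genes in the first and 14129 in the others. Leaving out 1 library at a time gave 0 to 1, beside 314 to 884 of all genes. In vehicle 1 member, Cxcl13, passed as higher with Hoxb13 (a marker of the distal colon) as a covariate (0.0455), with the B cell covariate (0.0239) and without the 2 libraries, with or without median-ratio scaling. The all-gene counts as higher were 167 with Hoxb13, 44 with the B cell covariate, and 703 and 97 without the 2 libraries, with and without that scaling. In ISM012-042 against sham 1 member, Ccl20, passed as lower with array weights (0.00256), with the B cell covariate (0.00709), without ISM012-042 replicate 3 (0.0353) and without the 2 libraries, with or without median-ratio scaling. The all-gene counts as lower were 938 with array weights, 150 with the B cell covariate and 117 without replicate 3. Without the 2 libraries they were 310 and 95, with and without that scaling. The cause was not tested. Of the ligand and receptor pairs 4 passed in all libraries, 2 to 5 with 1 library left out (2 without ISM012-042 replicate 3) and 0 without replicates 2 and 3. Over all genes the calls as higher and lower in vehicle, 46 and 584, were 421 and 911 with mitochondrial genes left out, 287 and 555 with array weights, 167 and 452 with Hoxb13 and 53 and 308 with only the groups compared. Those for ISM012-042 against sham, 77 and 123, were 745 and 387, 2322 and 938, 1108 and 271, and 477 and 232. Same-numbered libraries deviated together (correlation over 0.1) in 1, 2 and 3 of 6 pairs, with the highest value, 0.61, for replicate 2 of ISM012-042 and vehicle. The sample titles state no pairing, and these correlations cannot settle it, because shared composition could also raise them. A replicate block gave 0 members passing in every comparison. Low receptors near 1 TPM are limited by the unknown depth.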
